A study of Mus musculus with 9 samples.

Results

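Circular RNAs (circRNAs) of collagen, laminin, integrin and ADAM family genes were followed through the differentiation of the C2C12 line of mouse skeletal muscle myoblasts. A circRNA is a closed loop made when the end of one exon is spliced back to an upstream exon start, and each back-splice junction was counted in reads. The genes were chosen by symbol: those that begin with Col and a digit, Lama, Lamb, Lamc, Itga, Itgb or Adam, without the Itgb1bp genes. The choice gave 60 of the 6943 host genes in the deposited table and 416 of its 37751 circRNAs, with 22180 reads in all. Col4a3bp, a ceramide transfer protein, and Itgb3bp, a centromere protein, carry such symbols but are neither a collagen nor an integrin.

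Day 0 libraries came from proliferating cells that had not reached confluence. Day 3 and day 6 libraries came from cells whose medium with 10% fetal bovine serum was replaced, at confluence, by one with 2% horse serum, which drives myoblasts to become myocytes and fuse into myotubes. Serum, density and time change together between day 0 and the later days and cannot be told apart. Each day had 3 libraries, 9 in all, of TRIzol-extracted total RNA that was cleaned on RNAClean XP beads and treated with DNase. Since no label says that a day's 3 libraries stem from separate cultures, the p-values refer to the spread among these libraries alone, and that spread may be technical.

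The extracellular matrix around a muscle cell is a sheet of laminins and network collagens, the basement membrane, tied to fibrils of fibrillar collagens. Integrins are receptors made of an alpha and a beta chain that span the cell membrane and bind these proteins. ADAM proteases are anchored in the membrane and shed the outer parts of other membrane proteins. ADAMTS proteases are secreted and cut matrix proteins, and the ADAMTS-like proteins resemble them but lack the protease part. In muscle, laminin with the alpha 2 chain and its receptor, integrin alpha 7 beta 1, hold the fibre to its basement membrane.

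The junctions of the circRNAs on which the results turn are printed from GENCODE M21 transcripts (GRCm38), 5′ to 3′ on the transcript, as the last 30 bases of the closing exon in lower case and the first 30 of the opening exon in capitals. All lie in coding sequence. The first pair is the circRNA with the smallest p and a variant that opens 4 bases later, and the next 4 share the closing exon that Adamts6 used most. Col5a1 and Adam9 are shown as the most read circRNAs of their families, and Adamtsl2 and Itgb8 as the main circRNAs of hosts with no day 0 reads.
Adamts16 exons 4 to 9, chr13:70787027-70801045, minus strand: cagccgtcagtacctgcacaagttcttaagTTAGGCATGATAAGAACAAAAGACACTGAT
Adamts16 exons 4 to 9, opening 4 bases later, chr13:70787027-70801041, minus strand: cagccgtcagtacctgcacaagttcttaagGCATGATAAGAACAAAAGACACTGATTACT
Adamts6 exons 9 to 13, chr13:104366794-104400006, plus strand: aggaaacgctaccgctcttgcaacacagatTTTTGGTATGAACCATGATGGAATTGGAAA
Adamts6 exons 10 to 13, chr13:104375642-104400006, plus strand: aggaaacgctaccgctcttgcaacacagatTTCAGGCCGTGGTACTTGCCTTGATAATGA
Adamts6 exons 11 to 13, chr13:104390078-104400006, plus strand: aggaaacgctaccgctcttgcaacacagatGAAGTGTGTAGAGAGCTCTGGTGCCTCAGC
Adamts6 exons 11 to 13, opening 4 bases later, chr13:104390082-104400006, plus strand: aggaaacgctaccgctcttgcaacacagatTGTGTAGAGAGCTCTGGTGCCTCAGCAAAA
Col5a1 exons 2 to 4, chr2:27922017-27929541, plus strand: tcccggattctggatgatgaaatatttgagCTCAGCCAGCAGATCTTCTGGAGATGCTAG
Adam9 exons 12 to 14, chr8:24978428-24982122, minus strand: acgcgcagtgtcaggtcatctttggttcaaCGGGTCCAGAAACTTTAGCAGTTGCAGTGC
Adamtsl2 exons 9 to 12, chr2:27089584-27098703, plus strand: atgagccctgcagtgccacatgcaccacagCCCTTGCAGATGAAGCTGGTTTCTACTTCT
Itgb8 exons 2 to 6, chr12:119189819-119208604, minus strand: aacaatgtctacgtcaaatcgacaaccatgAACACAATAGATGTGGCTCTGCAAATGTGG

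The libraries held 208787 to 443955 back-splice reads, and the genes of interest took 0.781 ± 0.0377% of the day 0 reads, 0.778 ± 0.0492% of the day 3 reads and 0.949 ± 0.108% of the day 6 reads (SD, n = 3 libraries each). Levels are given as CPM on TMM-adjusted library totals, and a host's level sums all its circRNAs. One junction is counted per circRNA whatever its length, so CPM is not divided by length. Reads carry no molecular identifiers, and the floors given here cover counting error only. A circRNA with 1 read in a library is listed there at 0, since the smallest value above 0 was 2. Muscle fibre and cell cycle marker genes had circRNAs that moved with the days. The summed level of the 13 of 21 muscle fibre markers that were listed was 203 to 402 CPM at day 0, 9468 to 10926 at day 3 and 11303 to 14965 at day 6, while that of 12 of 12 cell cycle markers was 10647 to 12695, 2625 to 3131 and 1127 to 1706. The 5 of 8 myoblast markers that were listed summed to 210 to 399 CPM at day 0, 361 to 545 at day 3 and 384 to 602 at day 6. None of these 5 passed in any comparison. The other myoblast markers, Myod1, Myf5 and Chodl, had no circRNA listed, nor had the muscle markers Myog and Mymk. None of 6 endothelial or 6 leukocyte markers had one. Of 7 fibroblast markers 4 were listed, at no more than 118 CPM in sum at day 0, 40.9 at day 3 and 106 at day 6, and of 5 adipocyte markers only Pparg. These are cell populations measured in bulk, where fewer cells of a type and less RNA per cell cannot be told apart.

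The ADAMTS protease gene Adamts6 dominated the reads. The 15 ADAMTS and ADAMTS-like hosts gave 111 circRNAs and 12734 reads, 57.4% of the reads of all 60 hosts, and Adamts6 alone gave 10933 reads, 49.3%. The 7 fibrillar collagens gave 2710 reads, of which Col5a1 held 2375, and the 7 ADAM hosts 2460. Without Itgb3bp and Col4a3bp, which gave 3 and 82 reads, the 7 integrin beta and integrin-beta-like hosts gave 1364 reads, the 5 laminins 1269, the 6 other collagens 716, the 8 integrin alpha hosts 691 and the 3 network collagens 151. Reads were thus spread very unevenly, with 15 of the 60 hosts seen in all 9 libraries. Without Adamts6, the remaining hosts took 0.393 ± 0.012% of the day 0 reads, 0.395 ± 0.0283% of the day 3 reads and 0.479 ± 0.0244% of the day 6 reads (SD, n = 3 libraries each).

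**Figure D1:**
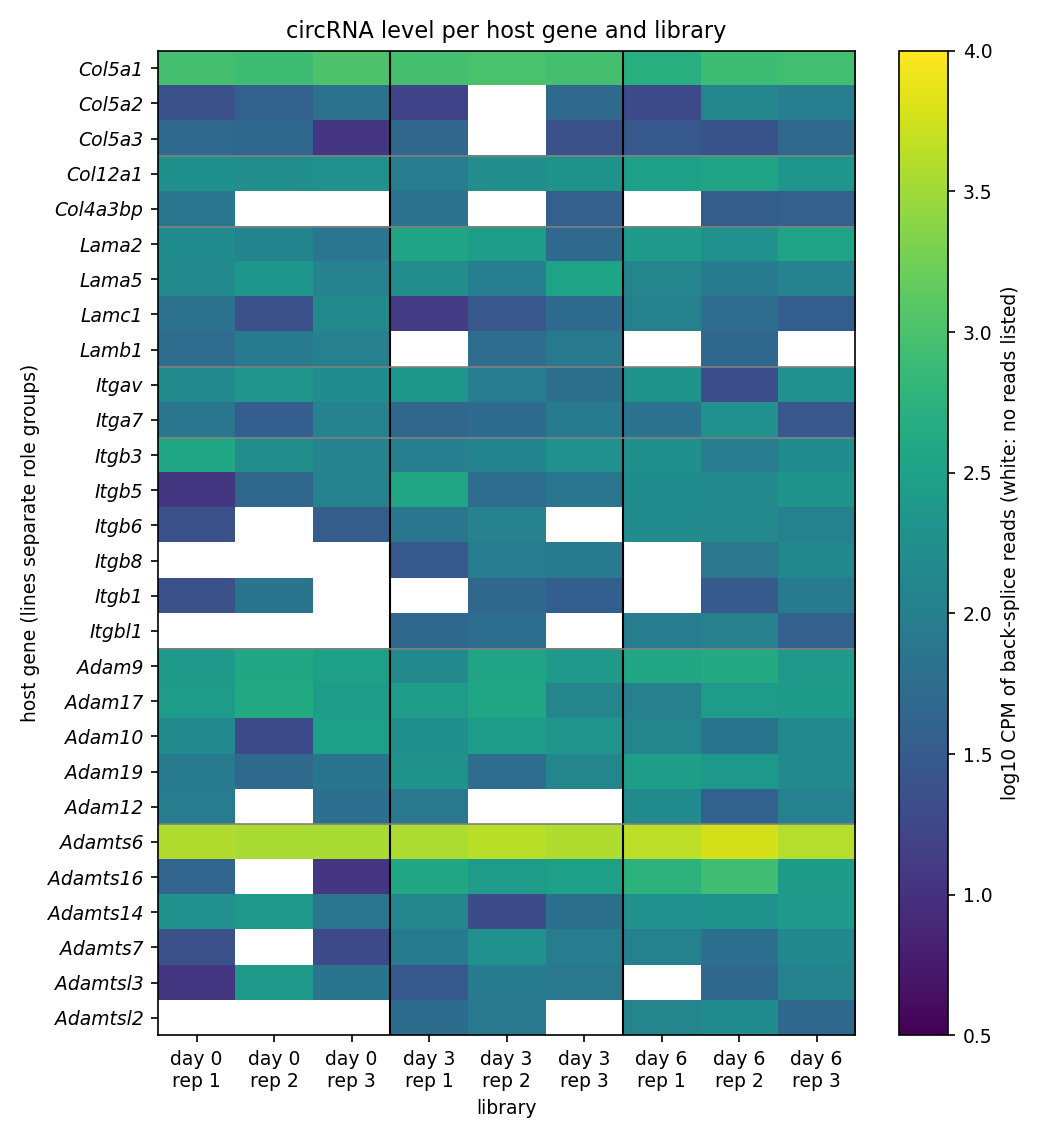
Level of back-splice reads for every host with at least 80 reads in all, one row per gene and one column per library, on a log10 CPM colour scale with white where no read was listed. Adamts6 and Col5a1 are bright in all 9 libraries. Adamts16 is dark or white at day 0 and brighter in every library of days 3 and 6. Adamtsl2, Itgb8 and Itgbl1 are white in all day 0 libraries and coloured in most, not all, of the later ones.

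Of the 416 circRNAs, 388 were exonic and 28 intronic. A single library held 278 of them (66.8%), against 61.0% of the circRNAs of all other hosts, and all 9 libraries held 12 (2.88%), against 4.03%. Of those 12, 7 belonged to Adamts6 and the other 5 to Col5a1, Adam9, Adamts14, Itgav and Adam19. The Adam9 circRNA was the only one of the 416 with a circBase identifier in the deposited table (0.240%), against 2.76% of circRNAs of other hosts.

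The filter on low counts kept 36 of the 60 hosts, which held 98.4% of their reads, and 72 of the 416 circRNAs, which held 80.7%. Day 3 was compared with day 0 to ask which of these circRNAs differ between differentiating and proliferating cells. By edgeR's quasi-likelihood test with Benjamini-Hochberg adjustment over all hosts, 1 of the 36 hosts, Adamts16, was higher at day 3 and none was lower, while 3.04% of all 4115 hosts tested were higher and 0.923% lower. At an unadjusted p under 0.05, 5 of the 36 were higher and 2 lower, against 8.38% and 5.15% of all hosts. Among the 5 were Adamtsl2, Itgb8 and Itgbl1, which had no day 0 reads and passed the filter through the later days alone. The 2 lower hosts, Col4a2 and Col6a3, had no day 3 reads. Among circRNAs, 1 of the 72, also of Adamts16, was higher and none lower, against 1.31% higher and 0.27% lower among all 8153. The median log2 fold change of the 36 hosts was -0.25, and of all hosts -0.02. The day 3 and day 0 libraries did not overlap for 4 of the 36 hosts, against 20.9% of all hosts, and for 7 of the 72 circRNAs, against 16.1% of all circRNAs.

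Day 6 against day 0 gave the same kind of count. Adamts16 was higher and no host was lower, 1 of 36, against 3.86% higher and 1.8% lower among all hosts, and at an unadjusted p under 0.05, 7 were higher and 0 lower, against 9.23% and 8.38% of all hosts. Among circRNAs, 2 of 72 were higher, 1 of Adamts16 and 1 of Adamts6, against 1.47% higher and 0.515% lower among all circRNAs. The libraries of days 6 and 0 did not overlap for 11 of the 36 hosts, against 23.8% of all hosts, in either direction. For circRNAs it was 14 of 72, against 16.4%. The median log2 fold change was 0.31 for the 36 hosts and -0.13 for all hosts. Adamtsl2, Itgb8 and Itgbl1, which had no day 0 reads, are among the 7 hosts higher at an unadjusted p under 0.05. Both comparisons with day 0 use the same day 0 libraries.

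Between day 6 and day 3 no host or circRNA of these families passed by edgeR, against 0.0243% higher and 0.0486% lower among all hosts and 0% higher and 0.0613% lower among all circRNAs. At an unadjusted p under 0.05 the edgeR counts were 1 host, which was higher, and 0 circRNAs, against 2.31% of all hosts higher, 3.67% lower and 4.34% of all circRNAs in either direction. DESeq2 gave 0 adjusted calls for both, against 0.486% of all hosts and 0.245% of all circRNAs. The groups did not overlap for 5 of the 36 hosts, against 11.3% of all hosts, and for 7 of the 72 circRNAs, against 9.13%. The median log2 fold change of the 36 was 0.49, against -0.06 for all hosts.

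DESeq2 on the same rows called more of these hosts: 5 at day 3 against day 0, where it called 7.05% of all hosts, and 5 at day 6 against day 0, where it called 11.3%. They were Adamts16, Adamtsl2, Itgb8 and Adamts7 in both comparisons, with Col6a3, the one that was lower, at day 3 and Itgbl1 at day 6. Adamtsl2, Itgb8 and Itgbl1 had no day 0 reads and passed the filter through the later days alone. Against day 0 they could only come out higher. Of the 72 circRNAs DESeq2 called 2 at day 3, against 3.34% of all, and 4 at day 6, against 5.72%, each set against day 0. Among them were the circRNA of Adamtsl2 at both days and 1 of Itgbl1 at day 6.

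**Figure D2:**
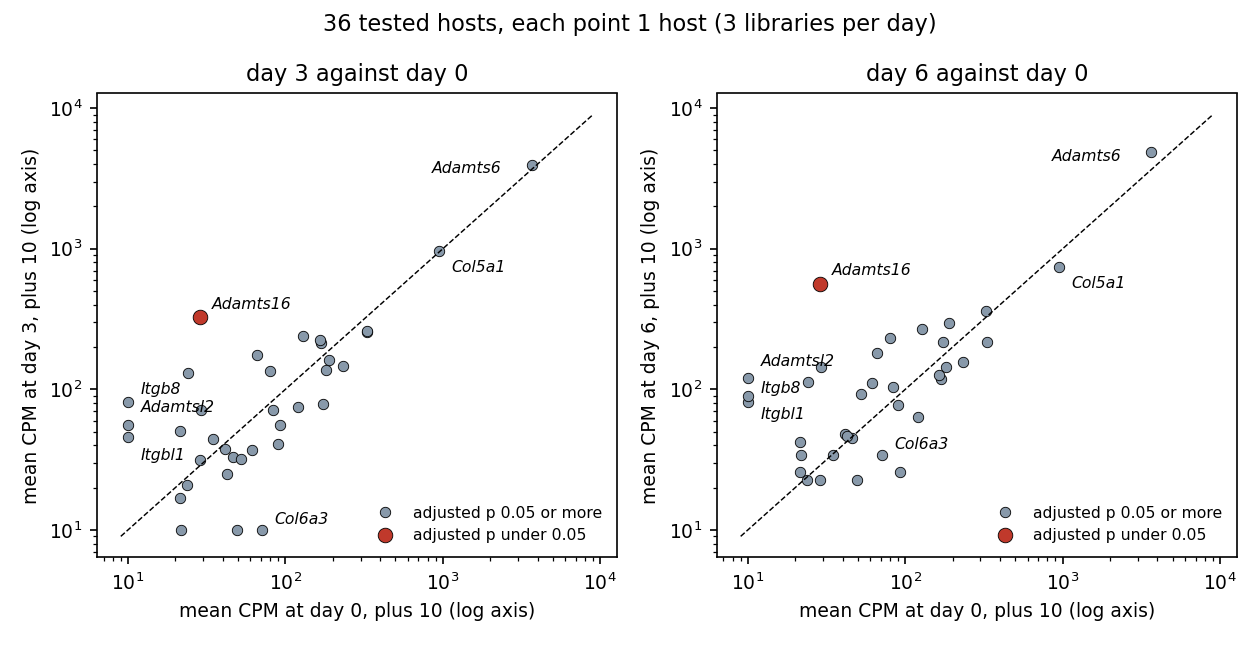
Mean CPM of each of the 36 hosts that passed the filter at day 3 (left panel) and day 6 (right panel), on the vertical axes, against day 0, on the horizontal axes, with 10 CPM added and log axes. Points on the dashed line were equal. Adamts16 is the one host past the adjusted p threshold of edgeR, and hosts with no day 0 reads line up at the left edge.

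Adamts16, a secreted metalloprotease, had the smallest adjusted p of these hosts and was higher at both later days. Its circRNAs had 15, 0 and 3 reads in the day 0 libraries, 120, 76 and 102 at day 3 and 118, 196 and 110 at day 6. In CPM these were 44.3, 0 and 11.3 at day 0, 387, 264 and 298 at day 3 and 567, 837 and 258 at day 6. All 6 libraries of days 3 and 6 lay above all 3 of day 0, whereas days 6 and 3 overlapped. The host averaged 316 ± 63.5 CPM at day 3 and 18.5 ± 23.0 CPM at day 0 (SD, n = 3 each). The log2 fold change was 3.99 ± 0.67 (SE; edgeR adjusted p = 0.000128). At day 6 it averaged 554 ± 290.0 CPM (SD, n = 3), and the log2 fold change from day 0 was 4.79 ± 0.69 (edgeR adjusted p = 6.1e-06). The log2 fold change of day 6 against day 3 was 0.80 ± 0.56 (SE, edgeR adjusted p = 0.883).

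The call on the Adamts16 host held without each of the 9 libraries in turn, with log2 fold changes of 3.44 to 5.67 at day 3 and 4.23 to 6.47 at day 6. Of its 9 circRNAs, the loop of exons 4 to 9 held 593 of the 740 reads, 80.1%. This loop had 11, 0 and 0 reads at day 0, 71, 76 and 80 at day 3 and 105, 166 and 84 at day 6. Day 0 replicate 1 thus held every read of that day. The log2 fold change was 4.27 ± 0.80 (SE, edgeR adjusted p = 0.000328) at day 3 and 5.15 ± 0.82 (edgeR adjusted p = 1.2e-05) at day 6. With day 0 replicate 1 left out, the loop was at least 20.7-fold higher at day 3 and at least 38.1-fold higher at day 6. The floor counted was 3 reads per library. Leaving replicate 1 out removes the highest day 0 value, 11 reads, so these bounds do not cover that library. In fits of only the 2 days compared, the loop did not pass (edgeR adjusted p = 0.260 and 0.0771 for days 3 and 6), nor with DESeq2 run with no filter, chosen after seeing the data (DESeq2 adjusted p = 0.835 and 0.833).

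The Adamts16 loop spans 950 spliced bases, and the intron before it is 35002 bases long. A second junction opens 4 bases further into exon 4, as the 2 Adamts16 lines above show, and had 52 reads against 593, or 8.06% of both.

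Adamts6, a secreted metalloprotease related to Adamts10, gave 63 circRNAs, 53 of them exonic, the largest number of the 60 hosts. Its level was 3796, 3605 and 3558 CPM in the day 0 libraries, 3705, 4348 and 3819 at day 3 and 4527, 5859 and 4113 at day 6. Every day 6 library lay above every day 0 library, and day 3 overlapped both. The log2 fold change of day 6 against day 0 was 0.40 ± 0.16 (SE, edgeR adjusted p = 0.174), which did not pass.

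One Adamts6 loop did pass. Exons 9 to 13, the most read circRNA of the 416 with 3568 reads, had 890.1, 683 and 1190.1 CPM at day 0, 1316, 1279.6 and 1466 CPM at day 3 and 1572, 2118 and 1562 CPM at day 6. The day 3 and day 6 libraries all lay above those of day 0, and days 6 and 3 did not overlap either. It averaged 1751 ± 318 CPM at day 6 and 921 ± 255 CPM at day 0 (SD, n = 3 each), and the log2 fold change was 0.93 ± 0.24 (SE, edgeR adjusted p = 0.0231). At day 3 it averaged 1354 ± 98.6 CPM, with a log2 fold change from day 0 of 0.56 ± 0.24 (edgeR adjusted p = 0.422). The day 6 call did not hold without day 0 replicate 1 (edgeR adjusted p = 0.0505), without day 0 replicate 2 (0.140) or without day 6 replicate 2 (0.269), nor in a fit of only days 6 and 0 (0.146), nor with DESeq2 and no filter (DESeq2 adjusted p = 0.977). Its log2 fold change over the 9 fits that leave out a library was 0.75 to 1.18. A much rarer loop, exons 7 to 14 (chr13:104347348-104413810), had 0, 0 and 8 reads at day 0, 6, 19 and 9 at day 3 and 0 in each day 6 library, at least 3.43-fold lower at day 6 than at day 3 (edgeR adjusted p = 0.664).

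**Figure D3:**
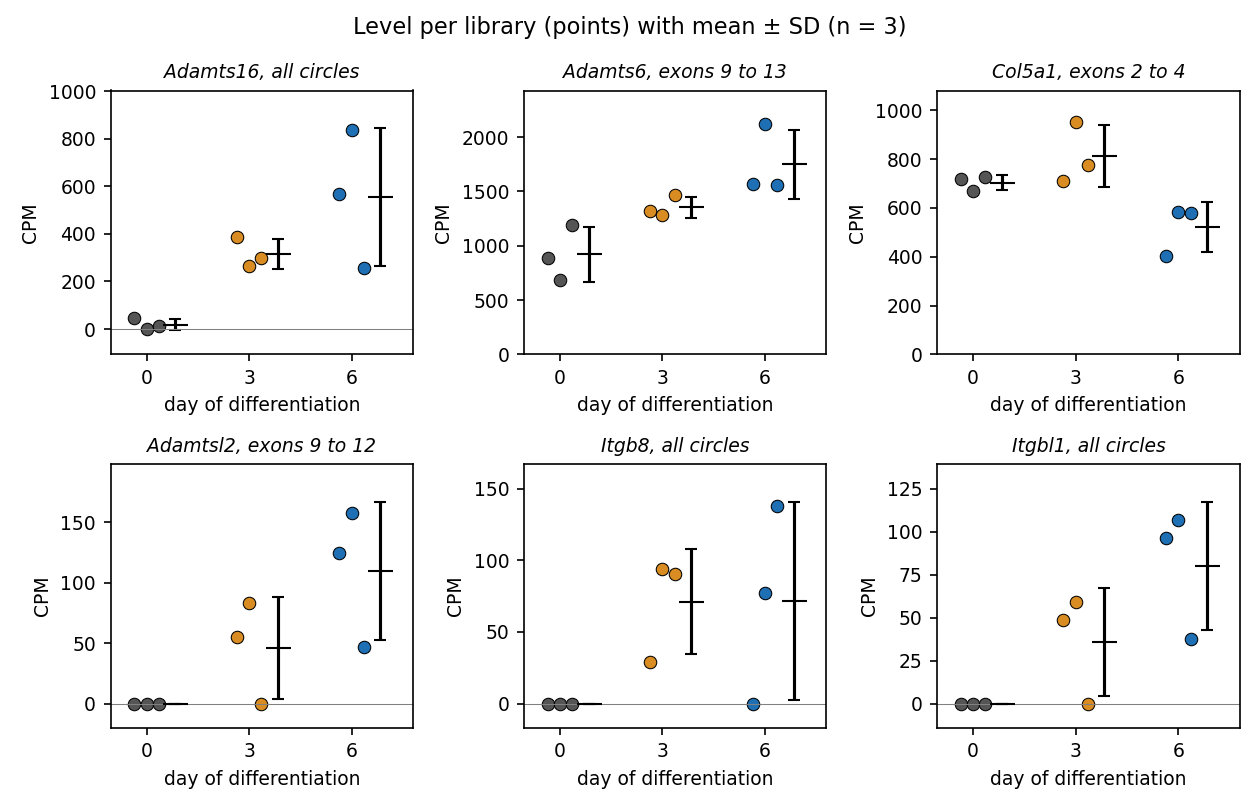
CPM per library (points) with the mean and SD of 3 libraries (bars) by day, for Adamts16, the Adamts6 loop of exons 9 to 13, the Col5a1 loop of exons 2 to 4, Adamtsl2, Itgb8 and Itgbl1. Adamts16 and the Adamts6 loop lie higher at days 3 and 6 than at day 0, and Adamtsl2, Itgb8 and Itgbl1 sit at 0 in all 3 day 0 libraries.

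Adamts6 back-splicing gathered at a few exons. The end of exon 13 closed 8 circRNAs with 6151 reads, 56.3% of the host's reads, and the start of exon 9 opened 7 circRNAs with 4909 reads, 44.9%. Exons 10 and 11 opened circRNAs with a further 1531 and 1436 reads, and exons 17 and 14 closed 15.4% and 12.9% of the reads. After the loop of exons 9 to 13, the most read were exons 10 to 13 with 1146 reads, exons 11 to 13 with 948, exons 9 to 14 with 896 and exons 15 to 17 with 810. Introns beside the circRNAs of Adamts6 were long, with a median of 13413 bases upstream and 13701 bases downstream, against 4950 and 3491 for other hosts. For circRNAs of other hosts in 2 or more libraries, as 39 of the 63 of Adamts6 were, the medians were 7263.5 and 5023. Circles that share an exon edge count the same intron more than once, and no test was made.

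The share of Adamts6 reads that came from the loop of exons 9 to 13 was 22.2%, 19.2% and 31.6% at day 0, 35.7%, 29.2% and 38.2% at day 3 and 37.2%, 38.0% and 37.6% at day 6. Days 6 and 0 did not overlap, and day 3 overlapped both. The day 6 libraries averaged 37.6 ± 0.446% and the day 0 libraries 24.3 ± 6.49% (SD, n = 3 for both), with a two-sided exact permutation p of 0.1, the smallest that 3 libraries against 3 allow, and 0.3 after Benjamini-Hochberg adjustment over 12 such tests. An edgeR test of whether circRNAs of 1 host changed unequally called none of the 13 hosts of these families that could be tested, in any of the 3 comparisons, and 0.364%, 0.606% and 0.0606% of all such hosts at days 3 and 6 against day 0 and day 6 against day 3. At an unadjusted p under 0.05 it also gave 0 of the 13 in each, against 10.1%, 11.1% and 6.43% of all such hosts.

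**Figure D4:**
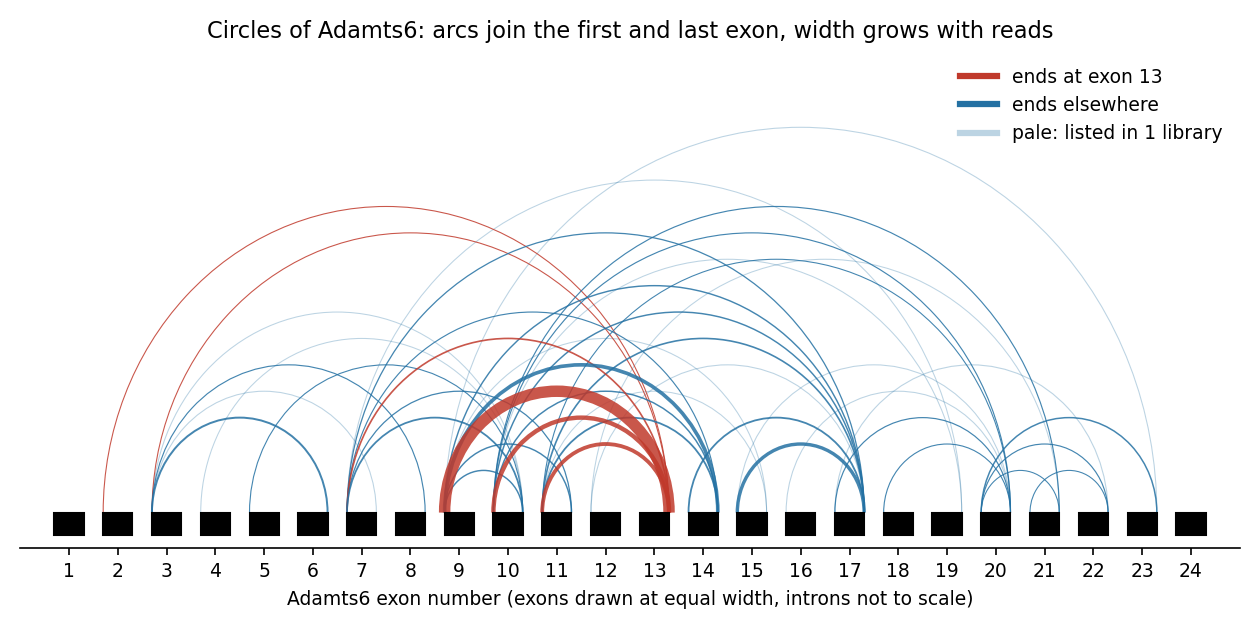
The 45 Adamts6 circRNAs, with 10443 reads, whose both ends lie at exon edges of one annotated transcript of 24 exons. Each arc joins the opening and closing exon, its width grows with reads, and pale arcs were listed in 1 library. Arcs in red close at exon 13, and the widest is the loop of exons 9 to 13.

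Among the other ADAMTS proteins, Adamtsl2, a matrix glycoprotein that binds fibrillin, made a single circRNA of exons 9 to 12. It had 0 reads in the 3 day 0 libraries, 17, 24 and 0 at day 3 and 26, 37 and 20 at day 6. All day 6 libraries lay above day 0, and at day 3 replicate 3 had none. The host was at least 10.3-fold higher at day 6 than at day 0 (edgeR adjusted p = 0.0530) and at least 4.34-fold higher at day 3 (edgeR adjusted p = 0.150), with 3 reads per library as the floor at day 0. The day 6 comparison passed under 5 of 18 alternatives in edgeR or DESeq2 (adjusted p 0.00228 to 0.128). Among the 5 were edgeR with no filter (adjusted p = 0.0325), without day 3 replicate 3 (0.0301) and without day 6 replicate 3 (0.0384). Those 2 libraries had the fewest reads of their days, 0 and 20, so leaving them out removes low values.

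Adamts7, a metalloprotease that cuts cartilage oligomeric matrix protein, had 8, 0 and 5 reads at day 0, 26, 53 and 32 at day 3 and 23, 14 and 59 at day 6. Every library of days 3 and 6 lay above day 0. It averaged 14.1 ± 12.5 CPM at day 0, 120.5 ± 55.4 CPM at day 3 and 103 ± 39.7 CPM at day 6 (SD, n = 3 each). Against day 0, the log2 fold change was 3.04 ± 1.36 at day 3 (SE, edgeR adjusted p = 0.308) and 2.81 ± 1.35 at day 6 (edgeR adjusted p = 0.275).

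Adamts14, which removes the amino-terminal propeptide of fibrillar procollagens, was the host of these families with the second smallest p between day 6 and day 3. It had 186, 230.4 and 75.2 CPM at day 0, 123, 20.9 and 61.3 CPM at day 3 and 187, 192 and 236 CPM at day 6. Days 6 and 3 did not overlap, and day 0 overlapped both. The log2 fold change of day 6 against day 3 was 1.58 ± 0.79 (SE, edgeR adjusted p = 0.737). Its loop of exons 3 and 4 (chr10:61245926-61249760) held 353 reads, 90.1% of the host's. Adamtsl3 had 207 reads over 12 circRNAs and ranged from 0 to 246 CPM over the 9 libraries. The remaining 9 ADAMTS and ADAMTS-like hosts, Adamts12, Adamtsl1, Adamts10, Adamts1, Adamts3, Adamtsl5, Adamtsl4, Adamts4 and Adamts17, had 3 to 37 reads each and did not pass the filter.

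Of the 7 ADAM hosts, 5 were tested, each with reads at all 3 days, and none passed in any comparison. Adam9 was carried by 1 loop, exons 12 to 14, with 696 of 782 reads. The Adam9 host had 251, 391 and 312 CPM at day 0, 152, 348 and 236 at day 3 and 379.7, 431 and 248 at day 6, and all 3 days overlapped. Adam17, the protease that releases tumour necrosis factor, had 12 circRNAs and 693 reads and averaged 208 ± 88.6 CPM at day 6 and 319.9 ± 88.4 CPM at day 0 (SD, n = 3 each), with overlapping libraries. Adam10, which sheds Notch receptors, had 129.8, 72.6 and 145 CPM at day 6 and 174, 264 and 210.2 CPM at day 3, which did not overlap, while day 0 ranged from 19.5 to 297 CPM. Adam19, also called meltrin beta, had 288, 231 and 145 CPM at day 6 and 88.6, 50.8 and 71.5 CPM at day 0. These 2 groups did not overlap, and their log2 fold change was 1.64 ± 0.79 (SE, edgeR adjusted p = 0.275). Adam12, or meltrin alpha, known for its link to myoblast fusion, had reads in 6 of 9 libraries, 0 to 154 CPM, at all 3 days. Adam32 (21 reads, none at day 0) and Adam15 (3 reads, all at day 0) did not pass the filter.

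The 3 tested hosts with no day 0 reads passed the filter through the later days alone, and 2 of them were in the integrin beta group. Itgb8, the beta chain that with alpha v activates latent TGF-beta, had 0 reads in all day 0 libraries, 9, 27 and 31 at day 3 and 0, 18 and 59 at day 6. Day 3 lay wholly above day 0, whereas replicate 1 at day 6 had none. The host was at least 6.70-fold higher at day 3 (edgeR adjusted p = 0.123) and at least 6.75-fold higher at day 6 (edgeR adjusted p = 0.0892). At day 6 it passed under 3 of 17 alternatives in edgeR or DESeq2 (adjusted p 0.00925 to 0.249). In 1 of these, day 6 replicate 1 was left out (edgeR adjusted p = 0.0345), which removes the day 6 library with no reads. The Itgb8 loop of exons 2 to 6 held 86 of 144 reads. Itgbl1, an integrin-beta-like protein, had 0 reads at day 0, 15, 17 and 0 at day 3 and 20, 25 and 16 at day 6, all 3 of which lay above day 0. It was at least 7.54-fold higher at day 6 (edgeR adjusted p = 0.125) and at least 3.37-fold higher at day 3 (edgeR adjusted p = 0.251).

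Itgb6, another partner of alpha v, had 154, 141 and 108 CPM at day 6 and 23.6, 0 and 33.9 CPM at day 0. Itgb5, the beta chain of a vitronectin receptor, had 159, 149 and 204 CPM at day 6 and 11.8, 46.9 and 109 CPM at day 0. Both pairs did not overlap, and neither passed (edgeR adjusted p = 0.341 and 0.350). Itgb3, which makes the vitronectin receptor with alpha v, ranged from 93.9 to 387 CPM with overlapping days. Of its 463 reads, 251 (54.2%) came from 3 circRNAs that open at exon 11 and end 1579 to 1585 bases beyond the nearest annotated exon end, and 185 from the loop of exons 11 to 13. Itgb1, the common beta chain of the laminin, collagen and fibronectin receptors, had 95 reads in 6 libraries. Itgb2, the beta chain of leukocyte integrins, had 12, 0 and 0 reads at day 0, 0 in each day 3 library and 5, 7 and 8 at day 6. Day 6 lay above day 3 (at least 2.52-fold higher, edgeR adjusted p = 0.737), and its loop of exons 4 and 5 (chr10:77546013-77547296) held 25 of the 32 reads.

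The partner chain Itgav, which pairs with beta 1, 3, 5, 6 and 8, had 197, 21.4 and 187 CPM at day 6 and 145, 211 and 158 CPM at day 0. Its days overlapped, and its loop of exons 17 to 21 was listed in all 9 libraries with 227 reads. Itga7, the muscle laminin receptor chain and 1 of the 5 hosts with most circRNAs (14), had 67.3, 188 and 28.1 CPM at day 6 and 73.8, 35.2 and 113 CPM at day 0. Those libraries overlapped, as did those of Itga5, the fibronectin receptor chain, seen in 3 libraries. Itga10, Itga6, Itga2b, Itga11 and Itga4, with 9 to 26 reads each, did not pass the filter.

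Laminin circRNAs were many and thinly read. Lama2, the alpha chain of muscle laminin, gave 31 circRNAs, second to Adamts6, and the most read held 57 of its 556 reads, 10.3%. It had 159.5, 121 and 75.2 CPM at day 0, 355, 281 and 49.6 at day 3 and 249.9, 188 and 344 at day 6. Day 6 lay above day 0 in every library and day 3 overlapped both. The log2 fold change of day 6 against day 0 was 1.13 ± 0.65 (SE, edgeR adjusted p = 0.360). Lama5, an alpha chain of many basement membranes, gave 20 circRNAs and averaged 108 ± 20.2 CPM at day 6 and 159 ± 51.5 CPM at day 0 (SD, n = 3 each). Lamb1 had 0, 47.0 and 0 CPM at day 6 and 56.1, 85.9 and 105 CPM at day 0, which did not overlap (log2 fold change -2.38 ± 2.01, edgeR adjusted p = 0.650). Lamc1, the common gamma chain, ranged from 12.9 to 150.5 CPM with overlapping days, and Lamb2 had 12 reads in 1 library.

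Among the fibrillar collagens, Col5a1, the chain of type V collagen that starts fibril assembly, had 26 circRNAs, and its loop of exons 2 to 4 held 1821 of 2375 reads, 76.7%. This loop had 718, 667 and 724 CPM at day 0, 709, 954 and 777 CPM at day 3 and 404, 584 and 578 CPM at day 6. Every day 6 library lay below every library of days 3 and 0. It averaged 522 ± 102 CPM at day 6 and 813 ± 126 CPM at day 3 (SD, n = 3 each), and the log2 fold change was -0.64 ± 0.32 (SE, edgeR adjusted p = 0.664). The host as a whole had a log2 fold change of -0.37 ± 0.26 between these days (edgeR adjusted p = 0.907). Col5a2 and Col5a3, the other type V chains, had 134 and 88 reads and overlapping days. Col1a2 was seen in 4 libraries, and Col3a1 (37 reads), Col24a1 (8 reads) and Col1a1 (3 reads) did not pass the filter.

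The network collagens Col4a5, Col4a1 and Col4a2 had 57, 52 and 42 reads in 3 to 6 libraries, and none passed. Col4a2 had 0 reads at day 3 and 15, 19 and 0 at day 0, at least 4.11-fold lower (edgeR adjusted p = 0.368). Col12a1, which sits on fibril surfaces, had 180.2, 168 and 188 CPM at day 0, 93.5, 163 and 199 at day 3 and 298, 346 and 218 at day 6. Day 6 lay above both earlier days, with log2 fold changes of 0.68 ± 0.58 against day 0 (SE, edgeR adjusted p = 0.659) and 0.91 ± 0.58 against day 3 (edgeR adjusted p = 0.795). Its loop of exons 37 to 42 held 354 of 534 reads. Col6a3, of the collagen VI filaments that surround fibres, had 40, 13 and 4 reads at day 0, 0 in each day 3 library and 11, 0 and 8 at day 6. Day 3 lay below day 0 in every library. It was at least 6.37-fold lower at day 3 than at day 0 (edgeR adjusted p = 0.251). Col18a1 was seen in 3 libraries, Col4a3bp in 5, and Col6a1 (39 reads), Col23a1 (25 reads) and Col6a2 (5 reads) did not pass the filter. With Itgb3bp (3 reads), 24 hosts in all did not pass. They held 348 reads, and 14 of these hosts were seen in 1 library.

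The exons used are described here with no test. Both ends lay at annotated exon edges of the host in 330 of the 388 exonic circRNAs (85.1%), against 89.5% for other hosts, and in 328 both lay in 1 transcript. Of these 328, 31 opened at exon 2 (9.45%), against 25.8% for other hosts, and 2 consisted of 1 exon. Their spliced length was divisible by 3 in 47.6%, against 38.1% for other hosts. Among circRNAs listed in 1 library the share was 54.2%, against 38.3% for other hosts, and among those in 2 or more libraries it was 36.8%, against 37.9%. The share was 83.7% in fibrillar collagens (36 of 43 circRNAs), 66.7% in network collagens and 73.9% in the other collagens without Col4a3bp. In Adamts6 it was 19.6% (9 of 46), and in the other ADAMTS and ADAMTS-like hosts 38.6% (17 of 44). Triple-helix exons of fibrillar collagens are known to hold whole Gly-X-Y codon triplets, which are 9 bases long, and 29 of the 43 fibrillar collagen circRNAs (67.4%) were also divisible by 9, against 3745 of 28803 for other hosts. These shares count each circRNA once, whatever its reads. The Col5a1 loop of exons 2 to 4, with 1821 of the 2710 fibrillar collagen reads, spans 545 spliced bases, divisible by neither 3 nor 9. Most collagen circRNAs, 67 of 81, were listed in 1 library. The share divisible by 3 was 79.1% among those and 71.4% among the 14 in more libraries. Circles of 1 gene share exons, so these shares are given with no test.

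**Figure D5:**
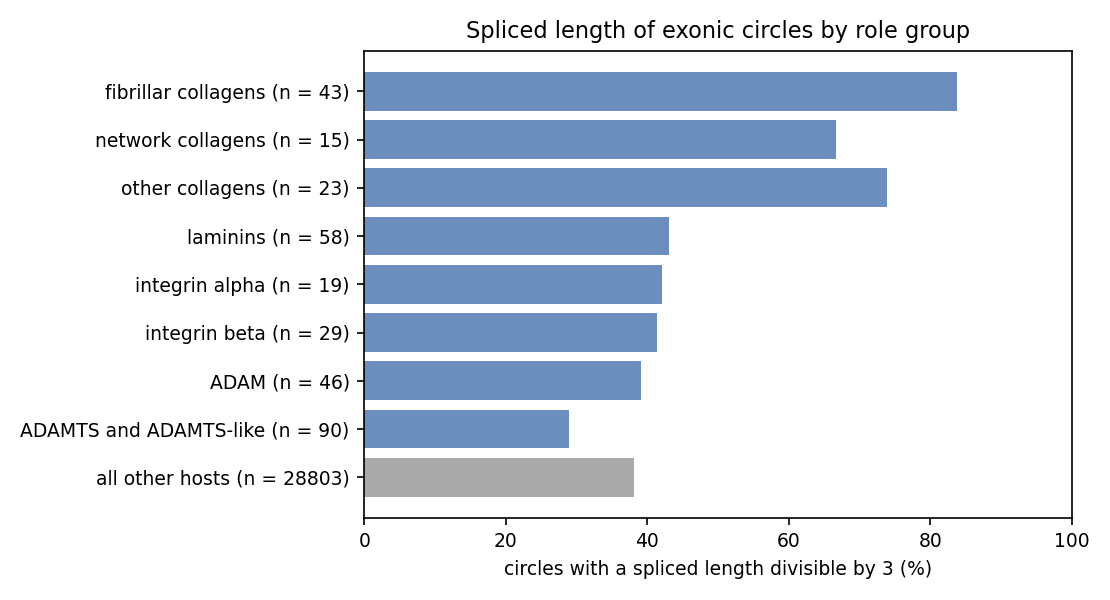
Share of circRNAs whose spliced length is divisible by 3, in percent, by family and for all other hosts. Fibrillar collagens stand at 83.7% and all other hosts at 38.1%, and the ADAMTS group lies at 28.9% with Adamts6 and would lie at 38.6% without it.

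Several circRNAs came in pairs whose opening ends lay 3 to 5 bases apart. In Adamts16 exon 4, Adamts6 exons 6 and 11, Col5a1 exon 2, Itgav exon 2 and Itgb6 exon 5, a second junction opened further into the exon, and the bases skipped ended in AG in each. The skipped bases were GAAG in Adamts6 exon 11, where the later junction to exon 13 had 219 reads against 948, or 18.8% of both, and both were listed in 8 libraries. In Col5a1 the later junction had 15 reads against 1821, or 0.817%. Adam17 exon 8 went the other way: in both of its pairs the second junction lay 5 bases before the exon, with 17 reads against 147 and 7 against 44. In the pair of Adamts6 exon 6, with 29 and 27 reads, both openings lie at annotated exon starts of the host. The circRNA caller is not given in the sources used here, so whether the pairs are 2 splice sites or 2 placements of similar reads was not tested.

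Genes that work with these families were also looked up. For the counts that follow, 3.04% of all hosts tested were higher and 0.923% lower at day 3 than at day 0. At day 6 these shares were 3.86% and 1.8%. Of 15 tested hosts for other matrix proteins, fibronectin (Fn1) was higher and the latent TGF-beta binding protein Ltbp1 lower at day 3 than at day 0, with log2 fold changes of 1.39 ± 0.34 and -1.22 ± 0.21 (SE, edgeR adjusted p = 0.00938 and 0.000187). At day 6 Ltbp1 alone passed, at -1.43 ± 0.21 (edgeR adjusted p = 1.2e-05). None of 8 tested hosts for collagen processing enzymes passed in any comparison. Of 18 tested hosts for adhesion proteins that link integrins to the cytoskeleton, or related surface proteins, the focal adhesion protein gene Tns3 was higher at days 3 and 6 than at day 0, by 1.30 ± 0.18 and 1.77 ± 0.18 log2 (edgeR adjusted p = 5.7e-06 and 9.4e-09). Cd44, a hyaluronan receptor, was lower at day 6 than at day 0, by -3.41 ± 0.64 log2 (edgeR adjusted p = 0.000363). The median log2 fold change of the 18 adhesion hosts was -0.71 at day 3 and -0.93 at day 6 against day 0. That of all hosts was -0.02 and -0.13. None of the matrix, processing or adhesion hosts passed between days 6 and 3, against 0.0243% of all hosts higher and 0.0486% lower. Of 9 tested muscle fibre hosts, 3 were higher at day 3 and 3 at day 6 than at day 0, and Ttn and Ryr1, which encode titin and a calcium release channel, held most of the summed level (means of 7463 and 2378 CPM at day 3). Of 10 tested cell cycle hosts, 7 were lower at day 3 and 8 at day 6. Their part in the changes of Adamts16 and the Adamts6 loop was not tested.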

How the data were processed

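The table deposited by the authors holds, for each circRNA, its raw count of reads in each library. BWA and the build GRCm38.p4 (mm10) are named in the submitters' processing notes. Not given in the sources used here are the circRNA caller, its version and filters, and what was done with duplicates. Counts were summed per host gene through the deposited gene identifiers, and symbols were taken from GENCODE M21 on GRCm38 (82 hosts had no symbol). As a check of the build, 92.8% of exonic starts lay at an exon edge of the host. Coordinates are counted from 1 as deposited, and exon numbers follow the annotated transcript that holds both ends.

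All 9 libraries entered one fit of the quasi-likelihood F-test of edgeR (version 4.0.16, R 4.3.3) with TMM factors, filterByExpr (minimum count 5, minimum total 15), prior count 0.125, 6 residual degrees of freedom and Benjamini-Hochberg adjustment over the whole table at 0.05. The standard error (SE) of a log2 fold change is approximate, from the F statistic. Unequal changes of circRNAs within a host were tested with edgeR's diffSpliceDGE. The script was tested on simulated data. For a group with no read in any library, the fold change is replaced by a bound with a floor of 3 reads per library. DESeq2 1.42.0 was an alternative. Replicate libraries differed beyond sampling noise, and none were identical. The genes, lists and tests were chosen with earlier results of these data known. Named by rule are all hosts and circRNAs that passed, the 3 most read hosts per family, the 5 hosts with most circRNAs, the 10 most read circRNAs, and the 3 hosts and 3 circRNAs with the smallest p per comparison. The other members are named after their values were seen, to account for all 60.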

Additional observations from a re-analysis of the deposited data

How the results depend on the processing

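Under library totals, DESeq2's size factors in edgeR, a minimum count of 10 and sums over circRNAs in at least 2 libraries, each count of called hosts and circRNAs stayed within 1.5 times that reported. DESeq2 called 5 hosts at day 3 and 5 at day 6 against day 0, in place of 1 each, and 2 and 4 circRNAs, in place of 1 and 2. DESeq2 with no filter, an alternative chosen after seeing the data, called 5 and 4 hosts and 0 circRNAs in both comparisons. With no filter in edgeR, 2 hosts passed at day 6 against day 0. In fits of only the 2 days compared, 0 circRNAs passed in either comparison with day 0. Leaving out each library in turn gave 1 to 2 hosts and 1 to 2 circRNAs at day 6 against day 0 and moved no other count. The causes were not tested. For DESeq2 on the filtered rows, the shares of all hosts and circRNAs called are given above. For the other alternatives no such share was computed, so their counts have no general rate beside them. Adamts16 as a host passed under 18 of 18 alternatives at day 3 and at day 6 (highest adjusted p 0.0336 and 0.0108), its loop of exons 4 to 9 under 15 of 17 at both days (adjusted p up to 0.835 and 0.833). At day 6 against day 0 the Adamts6 loop of exons 9 to 13 passed under 12 of 17 (adjusted p 0.000665 to 0.977), Adamtsl2 under 5 of 18 (0.00228 to 0.128) and Itgb8 under 3 of 17 (0.00925 to 0.249). No log2 fold change recomputed changed sign under these alternatives.

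The replicate numbers of the labels did not pair libraries of different days: correlations of the deviations of same-numbered libraries were -0.03 to 0.00 over 4115 hosts. With the replicate number as a block, the counts were as reported, 1, 1 and 0 hosts and 1, 2 and 0 circRNAs for days 3 and 6 against day 0 and day 6 against day 3.

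The median log2 fold change of all hosts moved with the scaling: at day 3 against day 0 it was -0.15 with library totals and -0.13 with DESeq2's size factors, against -0.02 with TMM, and at day 6 against day 0 -0.24 and -0.19, against -0.13. The precision was low for thinly read hosts such as Lamb1, whose log2 fold change of -2.38 at day 6 against day 0 carried an SE of 2.01. The part of depth and of the spread between libraries in that error was not tested.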
